A study of Mus musculus with 40 samples.

Results

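The genes described here are the mitochondrial solute carriers of family 25 that the array's gene annotation names Slc25a with a number. All such symbols were taken, apart from Slc25a20, which is counted with the carnitine genes. The rule used names alone and no measured value, but it was set with earlier results of these data known. It gave 38 genes, read by 54 probes, of the 16593 gene symbols on the array. Tissue came from 20 female mice, 9 weeks old, of the strains BALB/c and C57BL/6. Mice of each strain were gavaged with VSL#3, a commercial mixture of live bacteria, suspended in 200 µl PBS, or with PBS, 3 times a week over 4 weeks. Strain and treatment made 4 groups of 5 mice. Colon and small intestine of every mouse were each measured on an array of their own, which gave 8 groups of 5 among the 40 arrays. BALB/c mice came from Janvier and C57BL/6 mice from Charles River, so strain and supplier cannot be told apart. All mice were specific-pathogen-free by the labels, RNA came from frozen tissue, and nothing in the labels says that mice were pooled.

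Carriers of this family sit for the most part in the inner membrane of mitochondria, which is otherwise closed to charged solutes. Each moves a small set of substrates, often in exchange, such as ADP for ATP, phosphate, citrate, malate, aspartate, ornithine, coenzymes or iron. They thereby link the cytosol to respiration, to the malate-aspartate shuttle, to citrate export for lipid synthesis and to the urea cycle enzymes. The small intestine is known for taking up glutamine and making ornithine, citrulline and proline from it inside enterocytes, while colonocytes take up short-chain fatty acids.

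A set of 4 upstream sequences is shown here, since the small-intestine-high carriers Slc25a15, Slc25a45 and Slc25a48 and the BALB/c-high carrier Slc25a42 carry the results described further on. Each is the 250 bases before the outermost annotated start in the RefSeq table of mouse assembly GRCm38.p6, on the gene's own strand. The Slc25a15 stretch is chr8:22398622-22398871 on the minus strand and that of Slc25a45 is chr19:5877572-5877821 on the plus strand. That of Slc25a48 is chr13:56438105-56438354 on the plus strand and that of Slc25a42 is chr8:70212282-70212531 on the minus strand. Capitals mark matches to any of 6 motifs searched on both strands.
Slc25a15: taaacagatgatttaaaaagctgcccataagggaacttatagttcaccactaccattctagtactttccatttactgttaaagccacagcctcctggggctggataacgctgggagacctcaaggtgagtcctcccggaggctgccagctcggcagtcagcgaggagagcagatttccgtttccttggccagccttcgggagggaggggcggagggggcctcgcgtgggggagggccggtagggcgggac
Slc25a45: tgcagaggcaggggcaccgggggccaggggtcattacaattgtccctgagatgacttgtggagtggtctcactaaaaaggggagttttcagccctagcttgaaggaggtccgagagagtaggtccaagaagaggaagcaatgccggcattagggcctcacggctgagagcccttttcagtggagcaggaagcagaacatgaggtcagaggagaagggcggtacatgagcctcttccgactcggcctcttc
Slc25a48: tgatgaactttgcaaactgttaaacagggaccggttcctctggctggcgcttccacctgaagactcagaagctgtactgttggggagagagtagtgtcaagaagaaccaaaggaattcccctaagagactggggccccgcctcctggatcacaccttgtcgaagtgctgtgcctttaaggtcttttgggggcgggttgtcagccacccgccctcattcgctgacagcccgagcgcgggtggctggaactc
Slc25a42: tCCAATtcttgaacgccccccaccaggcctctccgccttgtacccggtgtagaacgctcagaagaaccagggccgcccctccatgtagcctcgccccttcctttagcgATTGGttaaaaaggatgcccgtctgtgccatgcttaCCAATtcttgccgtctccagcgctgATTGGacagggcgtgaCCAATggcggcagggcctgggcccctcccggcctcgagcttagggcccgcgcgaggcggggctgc
The motifs were the HNF4 core CAAAGTCCA, the HNF1 half-site GTTAAT, the CDX site TTTATG, the GATA site AGATAA, the TATA box TATAAA and the CCAAT box CCAAT. The letters of none of the 6 were in the upstream stretches of Slc25a15, Slc25a45 and Slc25a48. The stretch of Slc25a42 held 5 CCAAT boxes, at positions -249, -142, -106, -81 and -65 from the start site, with no overlap among them. Of 32851 upstream stretches of the same length in the table, 33.9% held a CCAAT box, 12.4% a TATA box, 10.8% the CDX site, 9.99% the GATA site, 6.43% the HNF1 half-site and 0.384% the HNF4 core. Of 40 stretches belonging to 31 of the 38 carriers, 18 held a CCAAT box, 4 the CDX site, 2 the GATA site, 2 a TATA box and 1 the HNF1 half-site. A match of letters describes the reference sequence and was not tested for binding, and no DNA sequence of these mice was read. How many of all stretches held 5 CCAAT boxes was not counted.

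Values are normalized log2 signals, and fold values are 2 to the power of a log2 difference. Each gene is read by the probe with its highest mean, and levels of different genes are not compared, since probes differ in how they bind. Genes detected (p-value under 0.05) on 5 or more arrays of a tissue entered its tests. For the comparison between tissues the 5 arrays were counted over all 40. This left 27 of the 38 carriers for colon, 27 for small intestine and 30 for the comparison between tissues. A total of 21 were detected on all 40 arrays. The 8 carriers tested nowhere were Slc25a18 and Slc25a21, carriers of glutamate and of oxodicarboxylates, Slc25a27 and Slc25a30, relatives of the uncoupling proteins, Slc25a31, the ADP/ATP carrier known from testis, Slc25a40, a glutathione carrier, Slc25a41, an ATP-Mg/phosphate carrier, and Slc25a53. Of these, Slc25a21, Slc25a27, Slc25a41 and Slc25a53 were detected on 0 of 40 arrays by any probe. Arrays detected between 11898 and 13518 of 25697 probes, and r over probes was 0.973 to 0.988 for pairs of arrays in a group. The tissue labels were met by their markers: 6 of 6 tested small intestinal enterocyte markers were lower in colon and 3 of 3 colonocyte markers were higher there. Strain labels of the VSL#3 colon arrays rest on the non-normalized table used here, since in the deposited normalized table the 10 columns so labelled match arrays of the other strain. With the labels used, Tomm22 was lower in BALB/c by a difference of -2.36 in VSL#3 colon, beside -2.42 in PBS colon, -2.49 in PBS small intestine and -2.32 in VSL#3 small intestine. Markers of pancreatic acinar cells stood highest in colon of 3 mice, namely VSL#3 BALB/c replicates 4 and 5 and PBS C57BL/6 replicate 3. By the mean centred log2 signal of these markers, PBS BALB/c replicate 5 came next, at 2.61 against 4.79 to 5.43 in those 3. That mouse stayed in the fits that left the 3 out. The summed log2 signal of 13 acinar markers ranged from 83.4 to 137 in PBS BALB/c colon, 82.8 to 174 in VSL#3 BALB/c colon, 85.0 to 166 in PBS C57BL/6 colon and 84.9 to 103 in VSL#3 C57BL/6 colon.

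The comparison of colon with small intestine in the same mouse asked where along the gut each carrier is expressed. Of the 30 carriers tested, 14 were higher in colon and 11 lower at an adjusted p under 0.05 (limma over all genes, Benjamini-Hochberg). Among all 10715 genes tested, 33.5% were higher and 26.2% lower. Slc25a29 among the 14 and Slc25a48 among the 11 passed the detection filter only through the tissue where they were higher. The median difference of the carriers was 0.12 on the log2 scale, against 0.02 for all genes. The ornithine carrier Slc25a15 and Slc25a45 were over 7-fold lower in colon, and Slc25a35 showed the largest rise among the 30. In whole tissue, fewer cells of a type and less RNA per cell cannot be told apart. Smooth muscle markers were higher in colon for 7 of 8, with a median of 1.09, while T cell markers were lower for 4 of 4, with a median of -1.66, and adipocyte markers lower for 5 of 5, with a median of -0.97. Pancreatic acinar markers were higher in colon for 11 of 13 and lower for 1, with a median of 1.86, and B cell markers were lower for 3 of 4, with a median of -0.61. Of the epithelial markers 5 of 8 were higher and 3 lower, with a median of 0.24, and both tested markers of enteric neurons were higher, with a median of 0.30. Their part in the carriers' differences was not tested. General mitochondrial genes moved both ways, with 3 of 11 higher and 4 lower in colon and a median of -0.03.

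**Figure D1:**
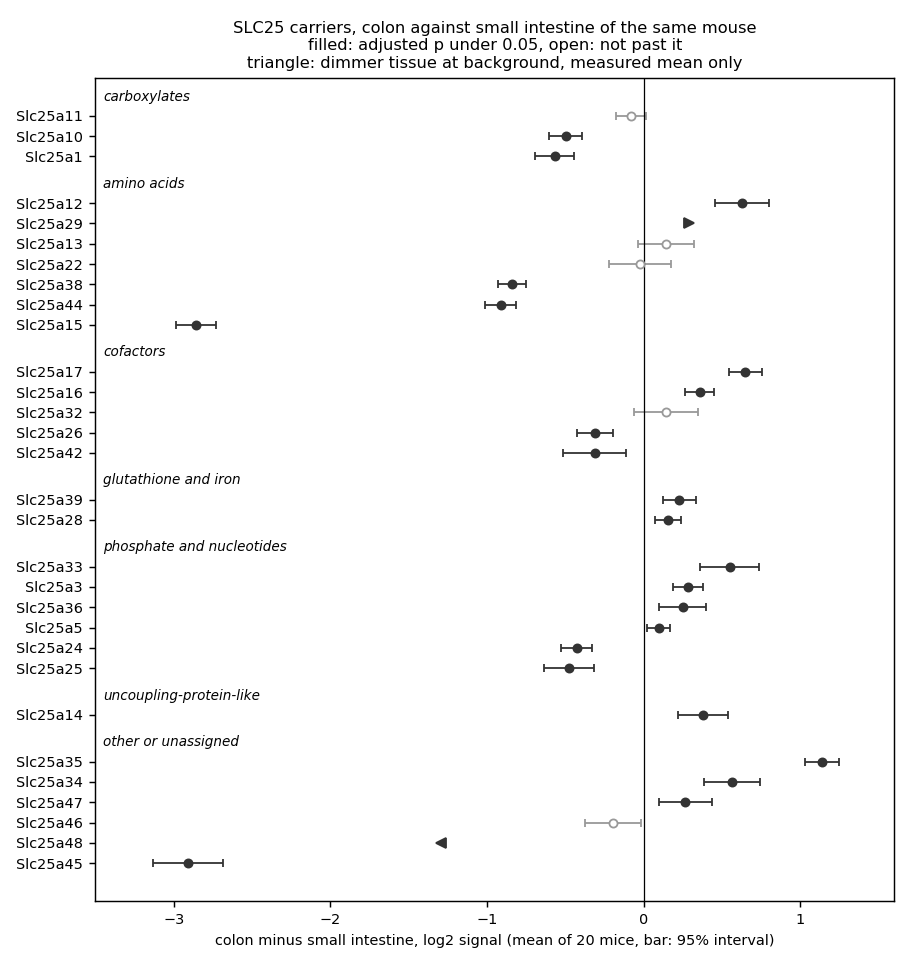
Colon minus small intestine in log2 signal for the 30 tested carriers, grouped by the substrates they are known to move, as the mean over 20 mice with its 95% interval. Slc25a45 and Slc25a15 lie far to the left at -2.91 and -2.86 and Slc25a35 to the right at 1.14, while triangles mark Slc25a48 and Slc25a29, which were above background on no array of the dimmer tissue and have no exact difference.

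Amino acid carriers held the largest fall next to that of Slc25a45. Slc25a15 brings ornithine into mitochondria, where it meets carbamoyl phosphate to form citrulline. Its log2 signal in small intestine was 9.89 at the lowest, 10.29 at the median and 10.90 at the highest of 20 arrays. In colon it was 6.98 at the lowest, 7.42 at the median and 7.94 at the highest. Every colon array lay below every small intestine array. The difference was -2.86 (SE 0.06, n = 20 mice, adjusted p = 1.39e-19), or 7.24-fold, in the same direction in 20 of 20 mice, and a second probe gave -2.71 (SE 0.06). Of the 8 tested enzymes of ornithine and urea metabolism, 6 were lower in colon and 1 higher, with a median of -1.76. Cps1, which makes carbamoyl phosphate, differed by -5.36 (SE 0.09), the arginase Arg2 by -4.44 (SE 0.14) and Otc, which forms citrulline, by -2.75 (SE 0.08). Oat, which makes ornithine from glutamate semialdehyde, differed by -1.66 (SE 0.05), and Aldh18a1, which makes that semialdehyde, by -1.69 (SE 0.08). The limma adjusted p of these 5 lay between 4.04e-21 for Cps1 and 1.95e-13 for Aldh18a1. Ass1, which uses citrulline, went the other way at 1.24 (SE 0.07, adjusted p = 8.85e-13).

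Slc25a44, a carrier of branched-chain amino acids, was measured at 8.03 to 8.60 in small intestine with a median of 8.26, and at 6.94 to 7.72 in colon with a median of 7.38. The ranges did not overlap, and the difference was -0.91 (SE 0.05, adjusted p = 4.35e-13). Slc25a38 brings glycine into mitochondria for haem synthesis. Its signal was lower in colon in 20 of 20 mice, from 7.45 to 9.07 with a median of 8.36, against 8.59 to 9.80 with a median of 9.15 in small intestine. Its difference was -0.84 (SE 0.04, adjusted p = 3.13e-13), though other probes of the gene gave -0.39 (SE 0.07) and -0.31 (SE 0.10). Slc25a12, a calcium-regulated aspartate/glutamate carrier of the malate-aspartate shuttle, was higher in colon by 0.63 (SE 0.08, adjusted p = 1.32e-06). Its close relative Slc25a13 did not pass the test at 0.14 (SE 0.09, adjusted p = 0.170), with a second probe at 0.28 (SE 0.08, adjusted p = 0.00341). Of the shuttle enzymes, Got2 was higher in colon at 0.37, while Mdh1, Mdh2 and Got1 were lower at -0.87, -0.58 and -0.32. Slc25a29, a carrier of basic amino acids, was detected on 8 of 20 colon and 0 of 20 small intestine arrays. Its means were 5.10 and 4.81 (adjusted p = 0.0029), and no fold is given because the small intestine level has only a bound. Counting small intestine at the detection limit left no lower limit of a fold to give. Slc25a29 passed the filter only through colon, where it was higher, so its call is not independent of the filter. The glutamate carrier Slc25a22 was detected on 3 colon and 2 small intestine arrays and differed by -0.02 (SE 0.10, adjusted p = 0.848).

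Of the 3 carriers of carboxylates tested, 2 were lower in colon. Slc25a1, which exports citrate, differed by -0.57 (SE 0.06, adjusted p = 4.69e-08), in the same direction in 19 of 20 mice, and its second probe gave -0.60 (SE 0.07). Slc25a10, the dicarboxylate carrier of malate and succinate, reached 8.25 to 9.40 in colon against 9.21 to 9.68 in small intestine, and was lower in colon in 20 of 20 mice at -0.50 (SE 0.05, adjusted p = 1.75e-08). Slc25a11, which exchanges oxoglutarate for malate, did not pass at -0.08 (SE 0.05, adjusted p = 0.133). Its other probes gave -0.01 and 0.03. Genes that use exported citrate and acetate did not share one direction, since Acly, which splits citrate in the cytosol, was higher in colon at 0.99 (SE 0.06), Acss2 higher at 1.65 (SE 0.06), and Me1 and Acaca lower at -0.79 and -0.36.

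Among the carriers of cofactors, 2 of 5 were higher in colon and 2 lower. Slc25a17, known from peroxisomes, where it carries coenzyme A, FAD and NAD, lay at 9.46 to 10.03 in colon with a median of 9.69, and from 8.58 to 9.44 in small intestine with a median of 9.09. Its ranges did not overlap, and the difference was 0.65 (SE 0.05, adjusted p = 3.29e-10). Slc25a16, linked to coenzyme A, was higher by 0.36 (SE 0.05, adjusted p = 6.83e-07). Slc25a26, the carrier of S-adenosylmethionine, was lower in colon at -0.31 (SE 0.06, adjusted p = 5.61e-05), as was Slc25a42, a carrier of coenzyme A, at -0.31 (SE 0.10, adjusted p = 0.00855). With the arrays of each tissue normalized apart, Slc25a42 no longer passed, at -0.19 (adjusted p = 0.0949). Its mean difference was -0.52 ± 0.37 in PBS and -0.55 ± 0.42 in VSL#3 BALB/c mice (SD, n = 5 each). In C57BL/6 mice it was -0.07 ± 0.36 and -0.10 ± 0.64, and the test of strain by tissue did not call Slc25a42. Slc25a32, the folate carrier, did not pass at 0.14 (SE 0.10, adjusted p = 0.217). The one-carbon genes Shmt2, Mthfd1 and Mthfd2 were all lower in colon, at -0.55, -0.25 and -0.47. Both tested carriers of glutathione and iron were higher in colon, Slc25a39, which brings glutathione in, by 0.23 (SE 0.05, adjusted p = 0.000559) and Slc25a28, the iron carrier mitoferrin 2, by 0.16 (SE 0.04, adjusted p = 0.00237). The Slc25a28 value differed between strains, as given below, at 0.48 ± 0.19 in PBS and 0.17 ± 0.07 in VSL#3 BALB/c mice against 0.02 ± 0.17 and -0.04 ± 0.16 in C57BL/6 mice (SD, n = 5 each). Of 8 haem and iron-sulfur cluster genes, 4 were higher in colon and 1 lower, the haem-related transporter Abcb10 at -0.64 (SE 0.07).

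Of the 6 tested carriers of phosphate and nucleotides, 4 were higher in colon and 2 lower. Slc25a5, the ADP/ATP carrier of most tissues, lay between 14.18 and 14.58 in colon and between 14.21 and 14.53 in small intestine. Its difference of 0.10 (SE 0.04, adjusted p = 0.0253) turned to -0.000423 when arrays were scaled by their medians, so its direction rests on the normalization, and it did not pass without VSL#3 BALB/c replicate 2 (0.08, adjusted p = 0.0533). Slc25a3, the phosphate carrier, was higher in colon at 0.28 (SE 0.05, adjusted p = 1.78e-05), whereas its second probe gave 0.02 (SE 0.04, adjusted p = 0.674). The pyrimidine nucleotide carriers Slc25a33 and Slc25a36 were higher in colon at 0.55 (SE 0.09, adjusted p = 2.07e-05) and 0.25 (SE 0.07, adjusted p = 0.00513). The calcium-sensitive ATP-Mg/phosphate carriers went the other way, Slc25a24 at -0.43 (SE 0.05, adjusted p = 1.09e-07) with a second probe at -0.35, and Slc25a25 at -0.48 (SE 0.08, adjusted p = 1.42e-05). Slc25a14, a relative of the uncoupling proteins, was higher in colon at 0.38 (SE 0.08, adjusted p = 0.000239). Of the related carriers under other symbols, Mtch1 was higher at 0.38 and Mtch2 lower at -0.73.

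The remaining 6 tested carriers have less settled or recently assigned substrates. Slc25a45, which has been linked in human cells to the entry of methylated amino acids, had a log2 signal of 9.01 at the lowest, 9.91 at the median and 10.64 at the highest of 20 small intestine arrays. In colon the same values were 6.34, 6.96 and 7.41. No arrays overlapped, and the difference was -2.91 (SE 0.11, adjusted p = 1.2e-15), or 7.51-fold, in 20 of 20 mice. Slc25a48, linked in human cells to choline entry, was detected on 0 of 20 colon arrays, with a mean of 4.72 there, and on 14 of 20 in small intestine, from 4.91 to 6.99 with a median of 6.16 and a mean of 6.01. Small intestine was at least 1.86-fold higher (adjusted p = 3.7e-13), counting colon at the detection limit, and the ranges overlapped since C57BL/6 small intestine reached down to 4.91. The gene passed the filter only through small intestine, so this call is not independent of the filter. Slc25a35 went the other way, from 7.27 to 8.03 in colon with a median of 7.72 and from 6.21 to 6.93 in small intestine with a median of 6.51. Its difference of 1.14 (SE 0.05, adjusted p = 3.93e-14), or 2.20-fold, held in 20 of 20 mice with no overlap of arrays. Slc25a34 was higher in colon by 0.56 (SE 0.09, adjusted p = 7.94e-06), in 15 of 20 mice, and Slc25a47, known from liver, by 0.27 (SE 0.08, adjusted p = 0.00752). The latter did not pass without the 3 mice of the highest acinar signal, at 0.20 (adjusted p = 0.065). Slc25a46, of the outer membrane, was detected on 1 colon and 4 small intestine arrays and did not pass at -0.20 (SE 0.09, adjusted p = 0.0516).

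**Figure D2:**
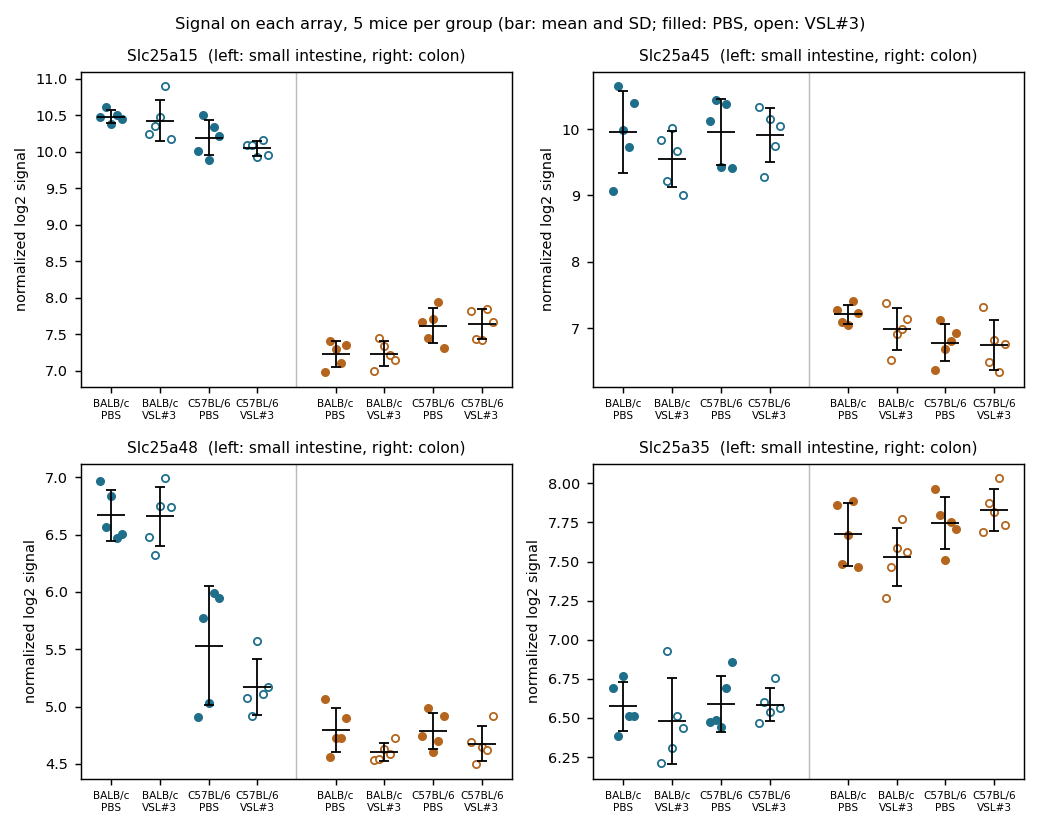
Normalized log2 signal on each array for Slc25a15, Slc25a45, Slc25a48 and Slc25a35, by strain and treatment, with the mean and SD of 5 mice. Every colon array lies below small intestine for Slc25a15 and Slc25a45 and above it for Slc25a35, and the axes do not start at 0. For Slc25a48 all colon arrays were at background, up to 5.07, and overlap small intestine, which reached down to 4.91.

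Whether the tissue difference itself depended on strain was tested on each mouse's colon minus small intestine value. Of the 30 carriers, 4 had a more negative tissue difference in BALB/c and 1 a more positive one. Among all genes tested these shares were 4.28% and 3.63%. Slc25a48 was not above background on any of the 20 colon arrays, so its tissue differences are set against background and have no exact size. They were measured at -1.87 ± 0.20 in PBS and -2.06 ± 0.23 in VSL#3 BALB/c mice (SD, n = 5 each). In C57BL/6 they were -0.74 ± 0.45 and -0.49 ± 0.25. The fitted strain difference was -1.35 (SE 0.13, adjusted p = 8.24e-07), and small intestine detected the gene on 10 of 10 BALB/c and 4 of 10 C57BL/6 arrays. It thus passed the filter only through BALB/c small intestine, where it was higher, and its call is not independent of the filter. Slc25a34 had tissue differences of -0.09 ± 0.23 and 0.25 ± 0.50 in BALB/c, against 0.98 ± 0.22 and 1.11 ± 0.55 in C57BL/6, in the order PBS and VSL#3. All 10 C57BL/6 mice lay above 0, while BALB/c mice lay on both sides of it, from -0.51 to 0.70. The strains differed by -0.97 (SE 0.17, adjusted p = 0.000944). Slc25a15 was lower in colon in every mouse, its differences reaching -3.68 to -2.90 in BALB/c against -3.05 to -2.18 in C57BL/6. That strain difference was -0.73 (SE 0.12, adjusted p = 0.000503), but a second probe of the gene gave -0.35 (SE 0.12, adjusted p = 0.083). Slc25a10 followed with -0.47 (SE 0.10, adjusted p = 0.00421). Slc25a28 was the carrier with a more positive value, 0.33 (SE 0.08, adjusted p = 0.0136), and it no longer passed without the 3 mice of the highest acinar signal, at 0.27 (adjusted p = 0.0869), or with arrays scaled by their medians, at 0.29 (adjusted p = 0.0852). The fitted values of Slc25a5, Slc25a3, Slc25a1, Slc25a11, Slc25a12 and Slc25a13 lay between -0.21 and 0.04 and did not pass. Of the tested ornithine and urea enzymes 0 of 8 differed between strains in this way. In the carnitine route 2 of 4 did, the carnitine/acylcarnitine carrier Slc25a20 at -0.51 (SE 0.08, adjusted p = 0.000334) and Cpt2, which acts next to it, at -0.52 (SE 0.09, adjusted p = 0.00119). Beside these, the acinar markers had a median strain difference of 1.49 with 0 of 13 past the threshold, and T cell markers of 0.49 with 1 of 4 past it. Small intestinal enterocyte markers had 2 of 6 past it, both more positive in BALB/c, with a list median of -0.11, and smooth muscle markers 1 of 8, with a median of -0.07. The part of any of these lists in the carriers' values was not tested.

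**Figure D3:**
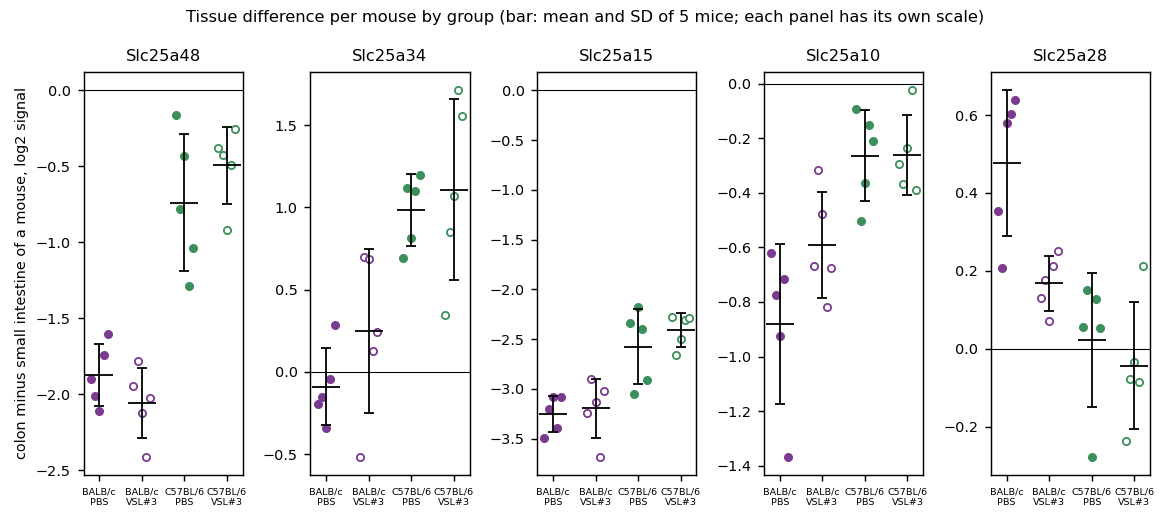
Colon minus small intestine log2 signal of each mouse for the 5 carriers past the threshold in the test of strain by tissue, with the mean and SD of 5 mice per group. Slc25a48 passed the detection filter only through BALB/c small intestine, and its colon arrays were all at background. For Slc25a48 every BALB/c mouse lies below every C57BL/6 mouse, and the Slc25a34 points of C57BL/6 mice all lie above 0.

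The strains were also compared within each tissue and treatment, with separate mice in the PBS and VSL#3 comparisons. These comparisons use the same arrays as the test of strain by tissue. In small intestine of PBS mice 3 of 27 carriers were higher in BALB/c and 0 lower, against 5.26% and 5.66% of 9634 genes. In VSL#3 mice 5 of 27 were higher and 0 lower, against 6.49% and 6.06%. At an unadjusted p under 0.05 the carriers numbered 5 and 7 in either direction, and all genes 2135 and 2445 (22.2% and 25.4%). The carriers called in both were Slc25a48, which passed the detection filter only through BALB/c arrays, Slc25a34 and Slc25a42. Signs over all carriers were mixed, with 10 of 27 above 0 in both comparisons and 4 below 0 in both. The same sign in both was found for 69.2% of all genes.

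Slc25a48 in small intestine of PBS BALB/c mice measured 6.97, 6.57, 6.84, 6.47 and 6.50, against 4.91, 5.77, 5.03, 5.99 and 5.95 in PBS C57BL/6 mice. In VSL#3 mice it measured 6.48, 6.32, 6.75, 6.99 and 6.75 in BALB/c and 5.08, 4.92, 5.57, 5.11 and 5.17 in C57BL/6. All 10 BALB/c arrays detected it and lay above all 10 C57BL/6 arrays, of which 3 detected it under PBS and 1 under VSL#3. The difference was 1.14 (SE 0.20, adjusted p = 0.000316) under PBS and 1.49 (SE 0.20, adjusted p = 1.02e-05) under VSL#3, and both include values near background. Slc25a48 passed the filter of 5 arrays only through BALB/c, since 4 of 10 C57BL/6 arrays detected it. Its calls are therefore not independent of the filter. Slc25a34 measured 6.84, 6.70, 6.78, 6.56 and 6.64 in PBS BALB/c small intestine and 6.17, 5.65, 5.60, 5.48 and 5.98 in PBS C57BL/6. Under VSL#3 it measured 7.07, 6.11, 6.68, 6.71 and 6.51 in BALB/c and 5.87, 5.76, 5.77, 5.24 and 5.22 in C57BL/6. The strains did not overlap in either treatment, at 0.93 (SE 0.17, adjusted p = 0.000557) and 1.04 (SE 0.17, adjusted p = 0.00014). In colon the same probe differed between strains by -0.14 (SE 0.16) under PBS and 0.18 (SE 0.16) under VSL#3 and was not called.

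Slc25a42, the coenzyme A carrier whose upstream stretch with 5 CCAAT boxes is printed above, measured 6.63, 6.62, 6.62, 6.08 and 6.59 in small intestine of PBS BALB/c mice and 5.51, 5.63, 5.79, 5.52 and 5.10 in PBS C57BL/6 mice. Under VSL#3 the BALB/c values were 6.20, 6.90, 6.64, 6.43 and 6.32 and the C57BL/6 values 6.11, 5.93, 4.90, 5.27 and 6.17. Within each treatment no BALB/c array fell in the C57BL/6 range. Its differences were 1.00 (SE 0.21, adjusted p = 0.00226) and 0.82 (SE 0.21, adjusted p = 0.0106). In colon its difference was 0.55 (SE 0.16, adjusted p = 0.0303) under PBS, where the strains overlapped, and 0.38 (SE 0.16, adjusted p = 0.155) under VSL#3. Across leave-one-mouse-out fits the PBS colon value was lost without any of 6 mice, BALB/c replicates 1, 2 and 4 and C57BL/6 replicates 2, 4 and 5, with adjusted p up to 0.0885.

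Slc25a38, the glycine carrier, was called higher in BALB/c in both tissues of VSL#3 mice. In colon it measured 8.72, 8.62, 8.75, 8.62 and 8.79 in BALB/c and 8.18, 7.45, 8.04, 7.84 and 7.95 in C57BL/6, with no overlap. That difference was 0.81 (SE 0.15, adjusted p = 0.00101), and the other probes gave 0.87 (SE 0.16, adjusted p = 0.000574) and 0.66 (SE 0.23, adjusted p = 0.0786). In small intestine the values were 9.50, 9.37, 9.57, 9.60 and 9.44 against 9.24, 8.59, 9.01, 9.04 and 8.91, again apart. The difference there was 0.54 (SE 0.14, adjusted p = 0.0149), with other probes at 0.72 and 0.58. It was lost without the 3 mice of the highest acinar signal (0.52, SE 0.18, adjusted p = 0.0748) or without C57BL/6 replicate 2 (0.45, adjusted p = 0.0515). Those 3 mice were picked by their colon arrays, and VSL#3 BALB/c replicates 4 and 5 are among them. In that fit fewer mice and acinar signal cannot be told apart. In PBS mice the differences were 0.46 (SE 0.15, adjusted p = 0.0602) in colon and 0.27 (SE 0.14, adjusted p = 0.293) in small intestine, short of the threshold. The strain difference itself was not shown to differ with treatment, at 0.35 (SE 0.22, adjusted p = 1) in colon and 0.27 (SE 0.20, adjusted p = 0.933) in small intestine. Slc25a26 was the fifth carrier called in small intestine of VSL#3 mice, at 0.35 (SE 0.11, adjusted p = 0.0406), and leaving out any of 7 mice, VSL#3 BALB/c replicates 1 to 4 or C57BL/6 replicates 2, 3 and 5, ended the call.

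**Figure D4:**
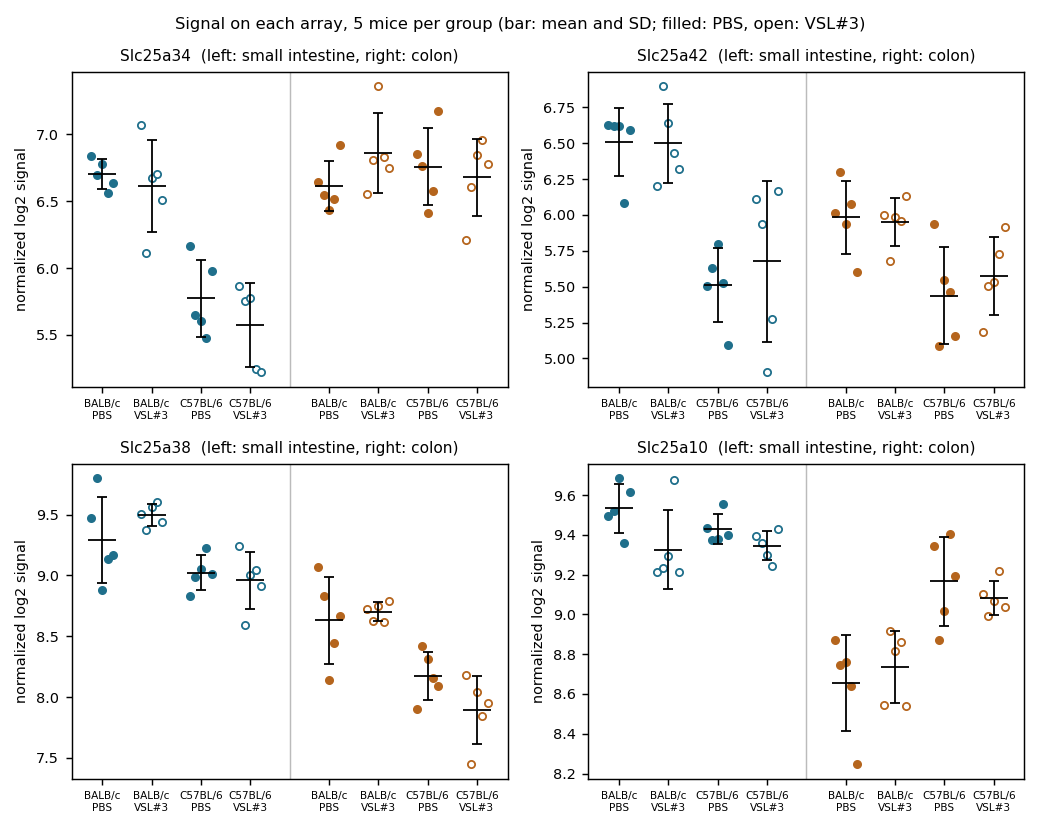
Normalized log2 signal on each array for Slc25a34, Slc25a42, Slc25a38 and Slc25a10, by tissue, strain and treatment, with the mean and SD of 5 mice. In small intestine BALB/c lies above C57BL/6 for Slc25a34 and Slc25a42, and in colon it lies below for Slc25a10, and the axes do not start at 0.

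In colon 1 of 27 carriers was higher and 1 lower in BALB/c under PBS, against 6.08% and 5.76% of 9833 genes. Under VSL#3 it was again 1 higher and 1 lower, against 5.36% and 5.74%. Carriers at an unadjusted p under 0.05 numbered 8 in each of these comparisons, in either direction, and all genes 2316 and 2369 (23.6% and 24.1%). The carrier lower under PBS was Slc25a10, at 8.87, 8.75, 8.76, 8.64 and 8.25 in BALB/c against 9.34, 8.87, 9.02, 9.40 and 9.19 in C57BL/6. The groups met at 8.87, and the difference was -0.51 (SE 0.13, adjusted p = 0.00863). Under VSL#3 it measured 8.54, 8.92, 8.82, 8.86 and 8.54 against 9.10, 8.99, 9.07, 9.22 and 9.04. Those groups did not overlap, though -0.35 (SE 0.13, adjusted p = 0.0815) did not pass. The PBS call was lost with arrays scaled by their medians (-0.495, adjusted p = 0.0548) and in the deposited normalized table (-0.53, adjusted p = 0.0696). Slc25a15 was the carrier lower under VSL#3, at 7.005, 7.44, 7.34, 7.22 and 7.15 in BALB/c against 7.82, 7.44, 7.43, 7.85 and 7.67 in C57BL/6. Its difference was -0.41 (SE 0.13, adjusted p = 0.0455), its second probe gave -0.08 (SE 0.18, adjusted p = 0.859), and under PBS it stood at -0.39 (SE 0.13, adjusted p = 0.0569). Leaving out VSL#3 BALB/c replicate 1, 3, 4 or 5 or VSL#3 C57BL/6 replicate 1, 4 or 5 ended the call, with adjusted p up to 0.122.

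Slc25a10 and Slc25a15 are among the carriers named in all comparisons, and were called in PBS colon and VSL#3 colon, as given above. The tested ones of that list left without a call were Slc25a5, Slc25a3, Slc25a1, Slc25a11, Slc25a12 and Slc25a13. These 6, carriers of ADP/ATP, phosphate, citrate, oxoglutarate and aspartate/glutamate, were thus picked as those called in 0 of the 4 strain comparisons. Their differences lay between -0.26 and 0.31, both of Slc25a13, in colon and small intestine of VSL#3 mice. At an unadjusted p under 0.05 none of these 6 passed either. Of all genes, 22.2% to 25.4% passed unadjusted and 10.9% to 12.5% adjusted over the 4 comparisons. Whether these 6 are steadier between strains than other genes was not tested. Slc25a24 in PBS small intestine was at 0.36 (SE 0.14, adjusted p = 0.111) by its main probe and at 0.01 by its second.

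Markers of other cell types were also compared between the strains, as RNA of whole tissue. T cell markers were higher in BALB/c for 4 of 4 in PBS colon, with a median of 1.09, and for 1 of 4 in each of the other 3 comparisons. Smooth muscle markers were lower in BALB/c for 2 of 8 in PBS colon and 3 of 8 in PBS small intestine, and for 0 of 8 under VSL#3 in either tissue. B cell markers were higher for 3 of 4 in PBS colon, with a median of 1.17. They were higher for 1 of 4 in VSL#3 colon, 1 of 4 in PBS small intestine and 0 of 4 in VSL#3 small intestine. Adipocyte markers were called for 0 of 5 in each comparison. Their medians were -0.18 in PBS colon, 0.13 in VSL#3 colon, -1.33 in PBS small intestine and 0.37 in VSL#3 small intestine. Acinar markers had a median of 3.07 in VSL#3 colon with 0 of 13 called. In small intestine, acinar markers were lower in BALB/c for 1 of 4 under PBS and 2 of 4 under VSL#3, and enterocyte markers for 1 of 6 and 2 of 6. General epithelial markers were called for 0 of 8 in all 4 comparisons, with medians from -0.16 to -0.07. The summed log2 signal of 4 T cell markers in PBS colon was 23.84 to 27.67 in BALB/c and 20.61 to 21.97 in C57BL/6. Their part in the carriers' strain differences was not tested. Of the general mitochondrial genes, Tomm22, of the outer membrane import machinery, was lower in BALB/c in all 4, with the values given above. The others of that list called in any of the 4 were Vdac2, higher in both colon comparisons at 0.54 and 0.37, and Hspd1, higher in PBS small intestine at 0.40. The median of the list stayed between -0.02 and 0.14. Slc25a20 was lower in BALB/c in colon, at -0.67 under PBS (adjusted p = 0.00025) and -0.47 under VSL#3 (adjusted p = 0.00847), and in small intestine it stood at -0.03 and -0.08 and was not called.

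The effect of VSL#3 against PBS was the question of the gavage. No carrier passed the threshold in limma in BALB/c colon, C57BL/6 colon, BALB/c small intestine or C57BL/6 small intestine, with 0 of 27 called in each, and 0% of all genes passed in any of the 4. At an unadjusted p under 0.05 the carriers numbered 0, 0, 3 and 2 of 27 in that order. For all genes these were 337, 633, 592 and 407, or 3.43%, 6.44%, 6.14% and 4.22%. With both strains pooled, 0 of 27 were called in colon and 0 in small intestine, again with 0% of all genes. In these pooled tests 1 and 2 carriers had an unadjusted p under 0.05, against 4.93% and 4.46% of all genes. Between the strains, the effect differed for 0 of 27 in colon and 0 in small intestine, with 0% of all genes. There 1 and 2 carriers had an unadjusted p under 0.05, against 4.56% and 5.38% of all genes. Median differences of the carriers were 0.00, 0.01, -0.05 and -0.01 in the 4 comparisons. The median width of a 95% interval to each side was 0.30 in each of the 4, before adjustment for the number of genes.

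**Figure D5:**
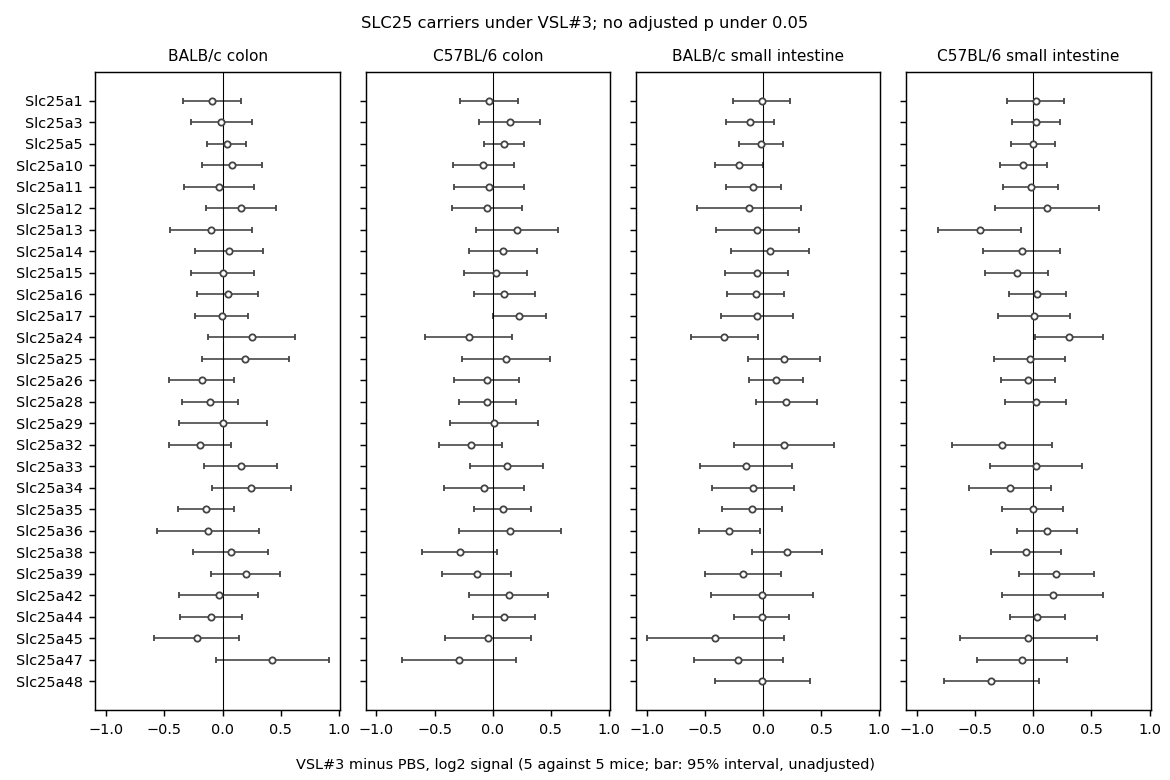
VSL#3 minus PBS in log2 signal with its unadjusted 95% interval for each tested carrier in the 4 strain and tissue combinations, 5 against 5 mice. Points lie between -0.46 and 0.43, and none had an adjusted p under 0.05.

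The smallest p-values in small intestine belonged to Slc25a24, the ATP-Mg/phosphate carrier, in BALB/c, with -0.33 (SE 0.14, adjusted p = 0.80), and to Slc25a13, the aspartate/glutamate carrier citrin, in C57BL/6, with -0.46 (SE 0.17, adjusted p = 0.998). Next in BALB/c came Slc25a36 at -0.29 (SE 0.12) and Slc25a10 at -0.21 (SE 0.10), and next in C57BL/6 Slc25a24 at 0.31 (SE 0.14) and Slc25a48 at -0.36 (SE 0.20). The opposite signs of Slc25a24 gave a strain difference of -0.64 (SE 0.20, adjusted p = 0.776), while its second probe gave 0.03 (SE 0.24, adjusted p = 0.998). Probes of Slc25a38 also disagreed in C57BL/6 small intestine, where the main probe gave -0.06 (SE 0.14) and another -0.73 (SE 0.20, adjusted p = 0.999). In the test of the strain difference of the VSL#3 effect in small intestine, Slc25a24 was followed by Slc25a36 at -0.41 (SE 0.18) and Slc25a13 at 0.41 (SE 0.24). In colon the smallest p-values were those of Slc25a47 in BALB/c at 0.43 (SE 0.23, adjusted p = 0.998), before Slc25a34 at 0.25 (SE 0.16) and Slc25a32 at -0.19 (SE 0.13). In C57BL/6 colon Slc25a17 came first at 0.23 (SE 0.11, adjusted p = 0.776), before Slc25a38 at -0.28 (SE 0.15) and Slc25a32 at -0.19 (SE 0.13). The strain difference in colon was led by Slc25a47 at 0.72 (SE 0.33, adjusted p = 1), before Slc25a24 at 0.46 (SE 0.25) and Slc25a39 at 0.34 (SE 0.20). Over both strains, Slc25a32 led in colon at -0.19 (SE 0.09, adjusted p = 0.924), and Slc25a13 at -0.25 (SE 0.12) and Slc25a10 at -0.15 (SE 0.07) led in small intestine (adjusted p = 0.999 for each). In that pooled test the next were Slc25a17 at 0.11 and Slc25a33 at 0.14 in colon and Slc25a48 at -0.18 in small intestine.

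Values of the main energy and shuttle carriers follow for the 4 comparisons of VSL#3 with PBS. Slc25a5 differed under VSL#3 by 0.04 in BALB/c colon, 0.10 in C57BL/6 colon, -0.02 in BALB/c small intestine and -0.00 in C57BL/6 small intestine, with an SE of 0.08 or 0.09. Slc25a3 differed by -0.01, 0.14, -0.11 and 0.02 in the same order, and Slc25a1 by -0.09, -0.03, -0.01 and 0.02. For Slc25a11 the differences were -0.03, -0.03, -0.08 and -0.02, and for Slc25a12 they were 0.16, -0.05, -0.12 and 0.12. Slc25a13 differed by -0.10, 0.21, -0.05 and -0.46, and Slc25a10 by 0.08, -0.08, -0.21 and -0.08. Slc25a15 showed 0.00, 0.02, -0.05 and -0.14, and its 95% interval in small intestine was -0.32 to 0.22 for BALB/c mice, against -0.41 to 0.13 for C57BL/6 mice. Acinar markers, whose signal was uneven among colon samples, had a median VSL#3 difference of 1.89 in BALB/c colon and -1.12 in C57BL/6 colon, with 0 of 13 past the threshold in each, and their part in the carriers' values was not tested.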

How the data were processed

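RNA from colon and small intestine of 20 mice was hybridised to Illumina MouseRef-8 beadchips, per the labels' protocols. The deposited non-normalized table gives the authors' probe intensity and a detection p-value per array, the latter stored as 1 minus the p-value. The deposited normalized table holds log2 values by the authors. Its 10 VSL#3 colon columns follow arrays of the other strain, so it served only as an alternative without them. The submitters' processing notes name limma, with no version or role. Intensities were background-corrected and quantile-normalized here with neqc (limma 3.58.1, R 4.3.3, offset 16). A probe was kept at a detection p-value under 0.05 on at least 5 arrays of a fit, and a gene was read by its kept probe of the highest mean. Tissues were compared on each mouse's colon minus small intestine value, and other comparisons within a tissue with 4 groups in a fit, by limma with Benjamini-Hochberg adjustment over all genes. The code was tested on simulated data. Nothing in the labels names cages. The mouse codes in the source names begin with a number of their own for each strain and treatment group, and a letter A or B splits each group. What number and letter stand for is not given, and whatever the number marks cannot be told apart from strain and treatment. The p-values measure the spread between these mice.

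Named with values were carriers past the threshold (at most 12 each way), the 3 of the smallest p where under 3 passed in VSL#3 or strain by tissue tests, the main energy and shuttle carriers in all comparisons, and carriers whose probes disagreed. Members and lists were chosen with earlier results of these data known. The pairing of tissues comes from the mouse code in the labels. Deviations of both tissues of a mouse correlated at 0.157 on average, over 0.1 in 13 of 20 mice. Colon of different mice that share only a number averaged 0.155 for PBS and VSL#3 BALB/c mice and 0.136 for VSL#3 mice of both strains. The other such averages, in colon or small intestine, lay between -0.151 and 0.0237. The correlation therefore does not show the pairing by itself. Alternatives covered scaling, background, filter, probe choice, samples in the fit, replicate block, acinar-rich mice and single mice. A slide block was not run, since slides are not given in the sources used here. The number of arrays limits the precision. Upstream sequences are from RefSeq tables of GRCm38.p6.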

Additional observations from a re-analysis of the deposited data

Results flagged for a closer look

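Among 216 groups of 5 arrays checked, 11 held an array apart from the other 4 by Dixon's criterion, and chance gives about 1 in 20 groups. In colon, Slc25a13 was at 4.965 in PBS C57BL/6 replicate 1, with the others at 5.562 to 5.72, and Slc25a5 at 14.18 in PBS C57BL/6 replicate 3, with the others at 14.4 to 14.48. That mouse is among the 3 of the highest acinar signal. Slc25a16 was at 8.581 in VSL#3 C57BL/6 replicate 3 and Slc25a36 at 8.591 in VSL#3 C57BL/6 replicate 5. Slc25a28 was at 9.856 in PBS BALB/c replicate 3. VSL#3 BALB/c replicate 3 stood apart for Slc25a32, at 5.92, and for Slc25a39, at 8.665. In small intestine, Slc25a10 was at 9.677 in VSL#3 BALB/c replicate 4, Slc25a17 at 8.579 in VSL#3 BALB/c replicate 3, Slc25a33 at 5.407 in PBS BALB/c replicate 5 and Slc25a42 at 6.084 in PBS BALB/c replicate 4.

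In limma's test of whether the tissue difference differs between strains, BALB/c minus C57BL/6, 5 carriers passed the threshold. Slc25a48 passed the filter only through BALB/c small intestine, where it was higher, so its call is not independent of the filter. A second probe of Slc25a15 did not pass (adjusted p = 0.083). Slc25a28 did not pass with median scaling (adjusted p = 0.0852) or without the 3 mice of the highest acinar signal (adjusted p = 0.0869). The values were -1.35 for Slc25a48, whose colon arrays were all at background, -0.966 for Slc25a34, -0.733 for Slc25a15, -0.473 for Slc25a10 and 0.333 for Slc25a28.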

How the results depend on the processing

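The counts of carriers called were 22 to 26 between tissues (25 as reported), 4 to 5 for strain by tissue, 3 between strains in PBS small intestine and 0 in all VSL#3 comparisons, under every alternative run. In PBS colon the 2 strain calls became 1 with median scaling, only the groups compared, the replicate block or without the 3 mice of the highest acinar signal, 4 with a detection p under 0.01 in the stricter filter, 0 in the normalized table, and 1 to 3 when single mice were left out. In VSL#3 colon the 2 became 1 with median scaling, no background correction, no filter, the mean of all kept probes, every kept probe tested, only the groups compared, the replicate block or without those 3 mice, and 1 to 2 without single mice. In VSL#3 small intestine the 5 ranged from 4 to 6, and from 3 to 6 without single mice, with 3 without C57BL/6 replicate 2. The tissue difference of Slc25a5 turned to -0.000423 with median scaling. The cause of these changes was not tested. Mouse numbers were not shown to pair mice across groups: 4 of 5 numbers correlated over 0.1 for PBS and VSL#3 BALB/c colon and at most 2 of 5 elsewhere. With the replicate block the PBS colon value of Slc25a42 stayed at 0.547 (adjusted p = 0.0572), and Slc25a15 in small intestine of VSL#3 mice passed at 0.378 (adjusted p = 0.0481). Under median scaling the all-gene median was 0.144 in the VSL#3 small intestine strain comparison, 0.124 and 0.146 for the VSL#3 effect in BALB/c small intestine and its strain difference.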
